A study of Mus musculus with 2 samples.

Results

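Chromatin accessibility was examined at the genes of the early growth response (EGR) transcription factors and of the NAB corepressors that bind them. The 6 genes were Egr1, Egr2, Egr3, Egr4, Nab1 and Nab2, out of 21923 protein-coding genes of the GENCODE vM21 annotation of GRCm38, and they were taken by name. For each gene, all ATAC-seq peaks were collected whose summit lay in the gene body or within 50 kb of either end, which gave 7 of the 58519 peaks of replicate 1 and 9 of the 64984 peaks of replicate 2. ATAC-seq reports DNA that the Tn5 transposase can reach, and a peak is a stretch where more tags, the extended ends of sequenced fragments, lay than a background predicted. The samples were 2 replicates of LβT2 cells, each of 4500 cells, and both had received pulses of 2 nM GnRH at intervals of 2 h. After 4 pulses over 6 h 45 min, with the last given 45 min before harvest, chromatin was taken from cells at passage 21. LβT2 is a single immortalized line of mouse gonadotropes, made by driving a viral T antigen with regulatory DNA of the Lhb gene. Samples without GnRH were not analysed here, and all values describe 1 condition with n = 2. The study calls its samples independent, but neither it nor the labels say that the replicates came from separate cultures, and the spread between them may be technical.

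EGR proteins are zinc finger factors of the immediate early response, whose genes are switched on within minutes of a stimulus. In gonadotropes, GnRH acts through a kinase cascade on the factors SRF and ELK1 at the Egr1 promoter, and EGR1 then activates Lhb together with SF1 and PITX1. NAB1 and NAB2 bind EGR1, EGR2 and EGR3 and repress their activity, and EGR4 lacks the domain they bind. Because EGR proteins in turn raise Nab2, the pair forms a negative feedback loop.

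The lists of both replicates differed in depth. The background at which the authors' peak values were set was 3.05 tags in replicate 1 and 3.54 tags in replicate 2, and the median peak held 14 and 16 tags at its summit. The lowest listed peak held 10 and 11 tags. An absent peak thus means only that none was listed at this depth and with the authors' peak calling settings. The cell type was checked at the promoters of 5 gonadotrope genes. Lhb, Cga and Gnrhr had a promoter peak in both replicates, the SF1 gene Nr5a1 had one in replicate 2, and Fshb had none. None of 5 genes of other pituitary lineages (Tshb, Gh, Prl, Pomc and Pou1f1) had a promoter peak in either replicate. Of all peak summits, 66.9% in replicate 1 and 61.2% in replicate 2 lay on sequence that occurs more than once in the genome, whereas all 7 and 9 summits at the EGR and NAB loci lay on single-copy sequence.

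The EGR and NAB genes had few peaks, and most lay at a transcription start site (TSS). A promoter peak was one with its summit within 1 kb of any annotated TSS of the gene, and other peaks of the window were called distal. The windows held 4 promoter and 3 distal peaks in replicate 1 and 6 promoter and 3 distal peaks in replicate 2. This made 8.0 ± 1.41 peaks on average (SD, n = 2). Egr1 had the most peaks of the 6 genes in both replicates, with 4 in replicate 1 and 3 in replicate 2. Egr2 had 2 peaks in each replicate. Nab2 had 1 peak in each replicate, at different places. Egr3, Egr4 and Nab1 had no peak in replicate 1 and 1 peak each, at the promoter, in replicate 2. For comparison, the windows of all coding genes held a median of 2 peaks in replicate 1 and 3 in replicate 2, with quartiles of 1 and 4 and of 2 and 5 peaks. At Egr1, 67.5% of coding genes had fewer peaks in replicate 1 and 40.4% in replicate 2. The other 5 genes had as many peaks as the median gene or fewer in both lists. A window without a peak, as at Egr3, Egr4 and Nab1 in replicate 1, was found at 16.7% of coding genes in that replicate and at 9.76% in replicate 2.

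**Figure D1:**
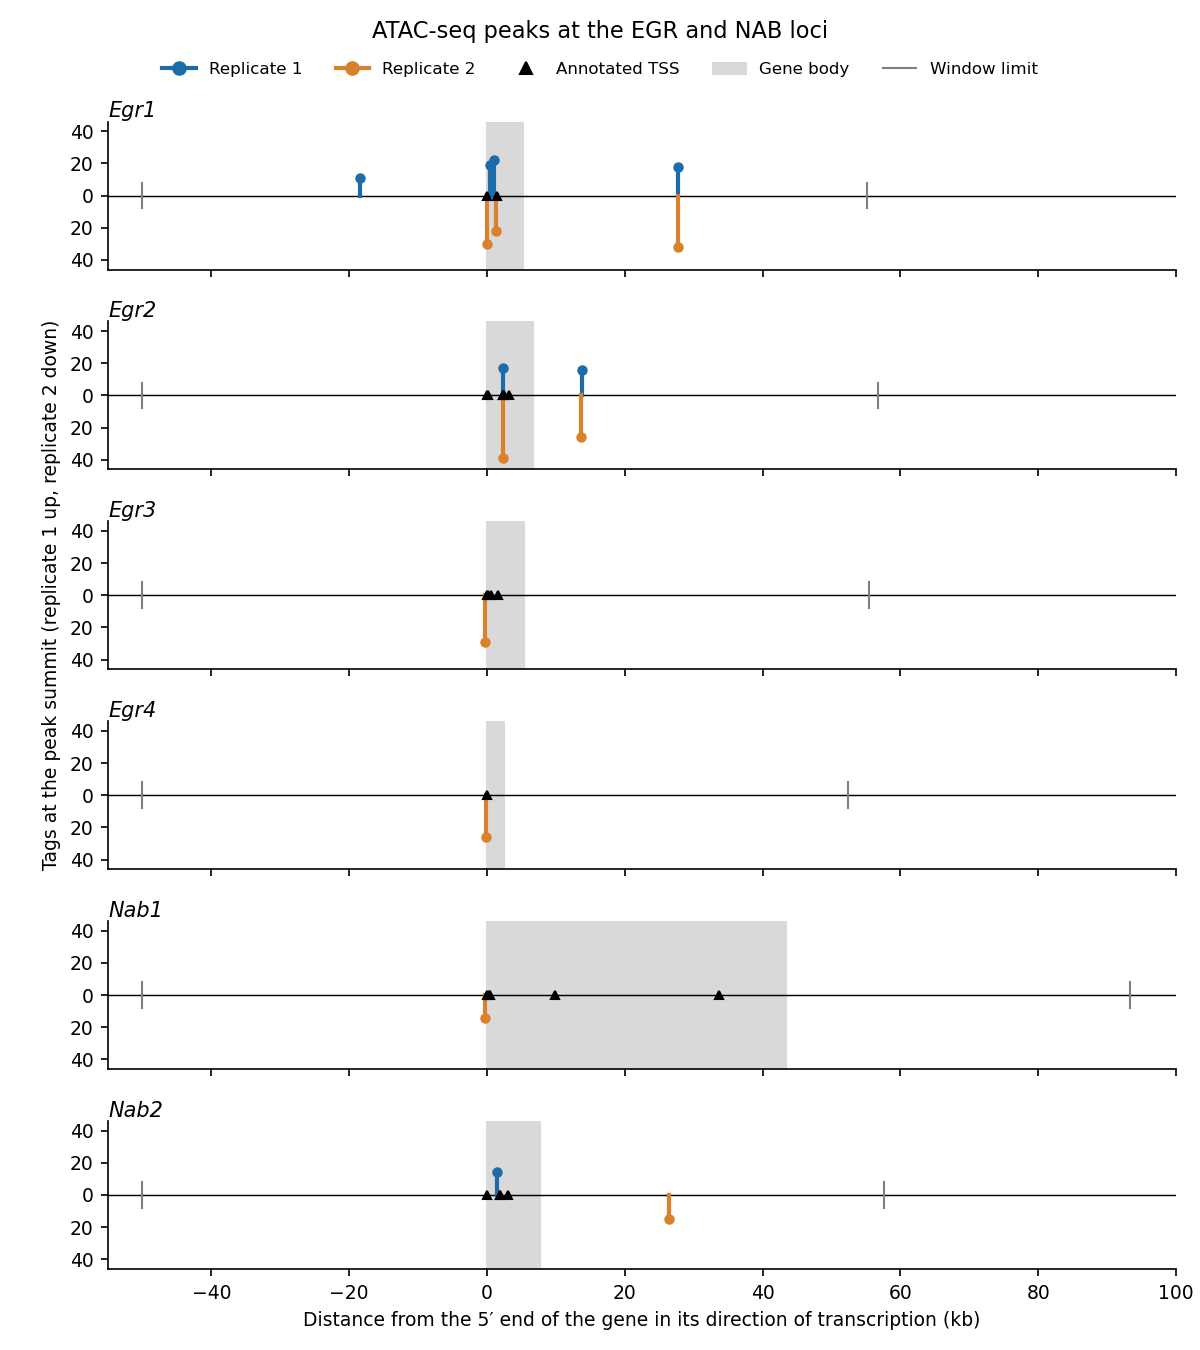
Peaks at the 6 loci, drawn by distance of the summit from the 5′ end of the gene in kb (horizontal) and by tags at the summit (vertical, replicate 1 upward and replicate 2 downward). Grey boxes are gene bodies, triangles annotated start sites and grey ticks the limits of the window. Egr1 and Egr2 have peaks of both replicates at the promoter and at 1 distal place, and Egr3, Egr4 and Nab1 have a peak in replicate 2 alone.

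A promoter peak was present at 3 of the 6 genes in replicate 1 (Egr1, Egr2 and Nab2) and at 5 of 6 in replicate 2 (all but Nab2), on average 4.0 ± 1.41 genes (SD, n = 2). Only Egr1 and Egr2 had a promoter peak in both replicates, and the peak counted for Nab2 lay nearer to a TSS of another gene, Nemp1. Among all coding genes, a promoter peak was called at 32.3% in replicate 1, at 44.4% in replicate 2 and at 30.8% in both. With 2 of 6 genes, the share in both replicates was close to that of all coding genes. Of the peaks at the 6 loci, 5 in each replicate overlapped a peak of the other replicate by at least 1 bp. This was 71.4% of the 7 and 55.6% of the 9 peaks, beside 59.1% and 51.6% of all peaks of the lists. All 5 shared peaks of each replicate belonged to Egr1 or Egr2. Among the highest promoter peaks, only those of Egr1 and Egr2 were shared, out of 3 in replicate 1 and 5 in replicate 2. Among the highest promoter peaks of all coding genes, 93.4% in replicate 1 and 67.1% in replicate 2 were shared, more than among all peaks.

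Egr1, the family member best known as the link between GnRH and Lhb, lies at chr18:34859823-34864984 on the plus strand (ENSMUSG00000038418.7). It has annotated TSSs at 34859823 and 34861207, of which RefSeq lists only the second. Peaks covered most of the stretch from the first of these to the second in both replicates, but the lists divided it differently. In replicate 1, the first promoter peak spanned 34859838 to 34860587 with 19 tags at its summit (95% Poisson interval 11.4 to 29.7). Its fold enrichment over background was 4.94, and −log10 q was 6.97. The second peak of replicate 1 spanned 34860817 to 34861170 with 22 tags (13.8 to 33.3), a fold enrichment of 5.68 and −log10 q of 9.36. In replicate 2, a single peak of 1104 bp ran from 34859788 to 34860891 with 30 tags (20.2 to 42.8), a fold enrichment of 6.83 and −log10 q of 15.2. It was followed by a peak of 182 bp from 34861086 to 34861267 with 22 tags, a fold enrichment of 5.07 and −log10 q of 8.44. The second peak was thus the higher in replicate 1 and the first in replicate 2, within overlapping intervals. The matched summits of the first and the second peaks lay 305 and 268 bp apart, so their tags were not read at the same bases. All 4 summits lay in an exon of an Egr1 transcript outside its coding sequence. Over both replicates the highest promoter peak of Egr1 had 26 ± 5.66 tags, a fold enrichment of 6.26 ± 0.817 and −log10 q of 12.3 ± 4.14 (SD, n = 2).

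Egr1 was also the only one of the 6 genes with a shared distal peak away from any annotated TSS. Its summits lay 26320 bp (replicate 1) and 26319 bp (replicate 2) downstream of the nearer Egr1 TSS, 1 bp apart and in no annotated gene. The peak spanned chr18:34887496-34887651 in replicate 1 with 18 tags (10.7 to 28.4), a fold enrichment of 4.69 and −log10 q of 6.22. In replicate 2 it spanned chr18:34887123-34887807 with 32 tags (21.9 to 45.2), a fold enrichment of 7.28 and −log10 q of 17.1. In replicate 2 it was higher than either promoter peak of Egr1, and in replicate 1 lower than both, within overlapping intervals in each case. The remaining distal peak of the window, chr18:34841415-34841662 with 11 tags (5.49 to 19.7), was listed in replicate 1 alone. It lay 865 bp inside the Reep2 gene from a TSS of that gene, so it is also a promoter peak of Reep2.

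Egr2, a factor with a known role in hindbrain patterning and in myelination, lies at chr10:67535475-67542188 on the plus strand (ENSMUSG00000037868.15). The summits of its promoter peak were placed almost identically in both replicates, 5 bp apart. They lay 91 and 86 bp upstream of the TSS at 67537869 (replicates 1 and 2), an internal TSS of the 6 annotated ones. In replicate 1 the peak spanned 67537536 to 67537880 with 17 tags (9.90 to 27.2), a fold enrichment of 4.44 and −log10 q of 5.50. In replicate 2 it spanned 67537397 to 67538213 with 39 tags (27.7 to 53.3), a fold enrichment of 8.82 and −log10 q of 24.0. The mean −log10 q was 14.8 ± 13.1 (SD, n = 2), with an SD close to its own size. No peak was listed within 1 kb of the 5′ end of Egr2 in either replicate. The distal peak of the Egr2 window was shared as well. It lay at chr10:67549073-67549488 in replicate 1 with 16 tags (9.15 to 26.0), a fold enrichment of 4.20 and −log10 q of 4.80. In replicate 2 it lay at chr10:67548970-67549697 with 26 tags (17.0 to 38.1), a fold enrichment of 5.95 and −log10 q of 11.7. Its summits lay at −372 and −212 bp from a TSS of Ado, a cysteamine dioxygenase gene, and at 10644 and 10484 bp from the nearest Egr2 TSS.

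The sequence under the Egr2 promoter peak is shown because it holds, around both summits, the 2 kinds of site through which immediate early genes are classically induced. These are the CArG box bound by SRF and half-sites (TGACG) of the cAMP response element (CRE), which CREB and ATF factors bind. The window is chr10:67537619-67537918 of GRCm38.p6 on the plus strand, 250 bases before and 50 after the RefSeq TSS, and capitals mark matches to the motifs searched, on either strand.
Egr2: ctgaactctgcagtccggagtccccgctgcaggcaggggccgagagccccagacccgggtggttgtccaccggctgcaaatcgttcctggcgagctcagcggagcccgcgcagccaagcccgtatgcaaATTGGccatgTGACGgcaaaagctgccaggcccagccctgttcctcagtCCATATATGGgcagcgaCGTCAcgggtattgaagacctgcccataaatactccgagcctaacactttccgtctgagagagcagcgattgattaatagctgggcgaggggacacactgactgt
The CArG match, CCATATATGG, begins at −72 from the TSS. CRE half-sites begin at −111 and −55 on either side of it, and a CCAAT box match begins at −121. The summits at −91 and −86 are bases 160 and 165 of the printed line, between the upstream half-site and the CArG match. Another RefSeq window of Egr2, for the TSS at 67537566, holds a second CArG match, CCTTTTTTGG, again at −72 from its TSS. That match was inside the peak of replicate 2, which begins at 67537397, and outside the peak of replicate 1, which begins at 67537536.

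Egr3 (chr14:70077203-70082614, plus strand, ENSMUSG00000033730.4), which acts in muscle spindle development and lymphocytes, had its 1 peak in replicate 2. The peak spanned 70076743 to 70076967, with the summit 354 bp upstream of the nearest TSS, 29 tags (19.4 to 41.6), a fold enrichment of 6.61 and −log10 q of 14.3. In replicate 1 the nearest summit lay 75015 bp from an Egr3 TSS, outside the window.

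Egr4 (chr6:85511121-85513589, minus strand, ENSMUSG00000071341.4), the member that NAB proteins do not bind, has a single TSS and likewise had a peak in replicate 2 alone. The peak spanned 85513630 to 85513858, with the summit 136 bp upstream of the TSS, 26 tags (17.0 to 38.1), a fold enrichment of 5.95 and −log10 q of 11.7. The nearest summit of replicate 1 lay 61929 bp from the TSS. The promoter is shown as a contrast to that of Egr2, since it holds a pair of CRE half-sites and no CArG match. The window is chr6:85513540-85513839 of GRCm38.p6, minus strand, with capitals as above.
Egr4: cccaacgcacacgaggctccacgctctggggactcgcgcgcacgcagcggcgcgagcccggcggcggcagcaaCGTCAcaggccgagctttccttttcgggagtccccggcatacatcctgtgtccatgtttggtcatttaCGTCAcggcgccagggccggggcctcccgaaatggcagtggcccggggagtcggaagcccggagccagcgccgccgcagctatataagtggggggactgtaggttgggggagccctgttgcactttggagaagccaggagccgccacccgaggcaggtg
The half-sites begin at −177 and −109 from the TSS, and the summit of replicate 2 (−136, base 115 of the line) lay between them.

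Nab1 (chr1:52457294-52500679, minus strand, ENSMUSG00000002881.14) had the lowest promoter peak of replicate 2 among the 6 genes and no peak in replicate 1. The peak spanned 52500656 to 52500975, with the summit 237 bp upstream of the nearest TSS, 14 tags (7.65 to 23.5), a fold enrichment of 3.31 and −log10 q of 2.99. The nearest summit of replicate 1 lay 66715 bp from a Nab1 TSS. The RefSeq window of Nab1 is shown because it holds 3 matches to the EGR site GCGNGGGCG beside this corepressor of EGR proteins. It is chr1:52500399-52500698 of GRCm38.p6, minus strand, and the peak overlapped only its upstream end. The summit of replicate 2, at 52500916, lay outside it.
Nab1: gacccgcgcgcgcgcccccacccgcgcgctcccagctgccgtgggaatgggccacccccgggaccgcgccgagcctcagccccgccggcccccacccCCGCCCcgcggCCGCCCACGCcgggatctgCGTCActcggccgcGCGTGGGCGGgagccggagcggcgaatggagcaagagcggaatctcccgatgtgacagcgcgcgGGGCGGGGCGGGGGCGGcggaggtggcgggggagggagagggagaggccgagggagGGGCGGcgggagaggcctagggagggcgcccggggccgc
The EGR matches begin at −141, −109 and −38 from the TSS at 52500448. The window also holds 7 SP1 matches (GGGCGG), some of which overlap the EGR matches, and 1 CRE half-site. It is 81.7% G and C, beside a median of 52.7% over 32851 RefSeq promoter windows of the same length. Of these windows, 5.55% hold an EGR match, 35.7% an SP1 match and 20.8% a CRE half-site.

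Nab2 (chr10:127660918-127668568, minus strand, ENSMUSG00000025402.12), the corepressor gene that EGR proteins induce, had a promoter peak in replicate 1 alone. The peak spanned 127667058 to 127667453 with 14 tags, a fold enrichment of 3.70 and −log10 q of 3.49. Its summit lay 442 bp upstream of a Nab2 TSS but 8 bp downstream of a TSS of Nemp1, inside a Nemp1 exon, so the peak cannot be assigned to Nab2 by position. In replicate 2 the nearest summit lay 23402 bp from a Nab2 TSS. This was the peak chr10:127642033-127642310 with 15 tags (8.40 to 24.7), a fold enrichment of 3.53 and −log10 q of 3.57, and it lay at −907 bp from a TSS of Stat6. Neither NAB gene thus had a peak at the same place in both replicates. In each replicate, 2 of the 3 distal peaks of the 6 loci lay within 1 kb of a TSS of another gene (Reep2 and Ado in replicate 1, Ado and Stat6 in replicate 2), and the third was the peak downstream of Egr1.

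The promoter peaks were of ordinary height for a coding gene. Coding genes with a promoter peak had a median of 19 tags at the highest one in replicate 1 (quartiles 15 and 26) and 27 tags in replicate 2 (19 and 38). In replicate 1, −log10 q was lower at 62.1% of these genes than at Egr1, at 35.9% than at Egr2 and at 15.1% than at Nab2. In replicate 2, it was lower at 75.1% of them than at Egr2, at 58.2% than at Egr1, at 55.6% than at Egr3, at 46.7% than at Egr4 and at 4.04% than at Nab1. The EGR genes thus lay within the middle of the distribution, except that Egr2 was at its upper quartile in replicate 2, and the NAB genes lay near its lower end.

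**Figure D2:**
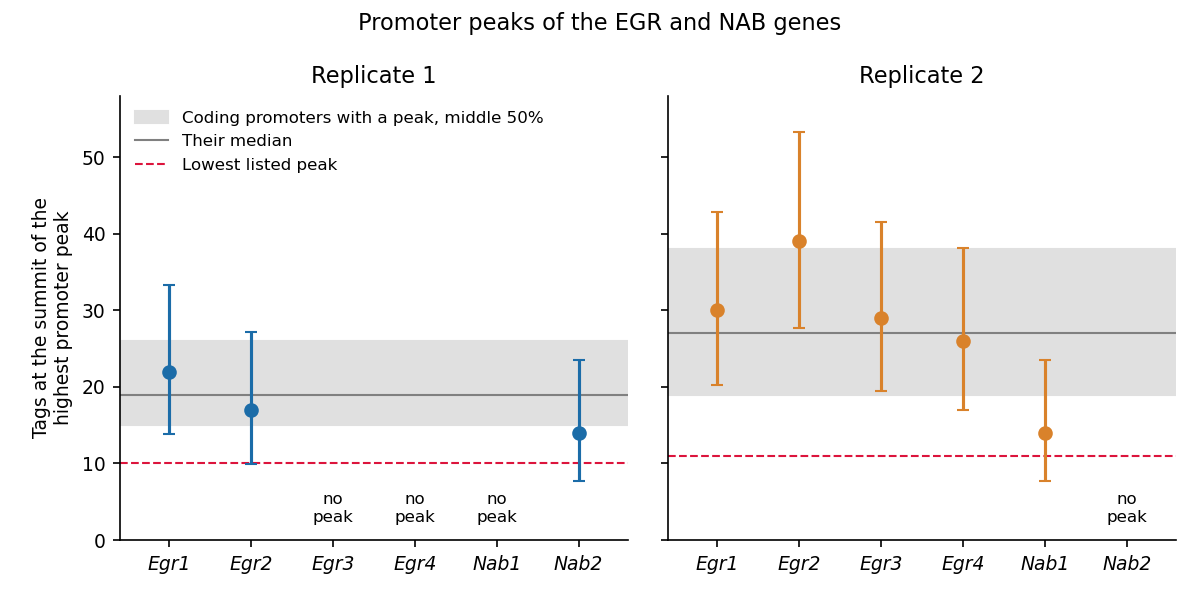
Tags at the summit of the highest promoter peak of each gene (points) with 95% Poisson intervals (bars), for each replicate. The grey band holds the middle 50% of coding genes with a promoter peak, the grey line is their median and the dashed line the lowest listed peak of 10 or 11 tags. Egr2 has the most tags of the 6 genes in replicate 2 (39) and Nab1 the fewest (14).

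**Figure D3:**
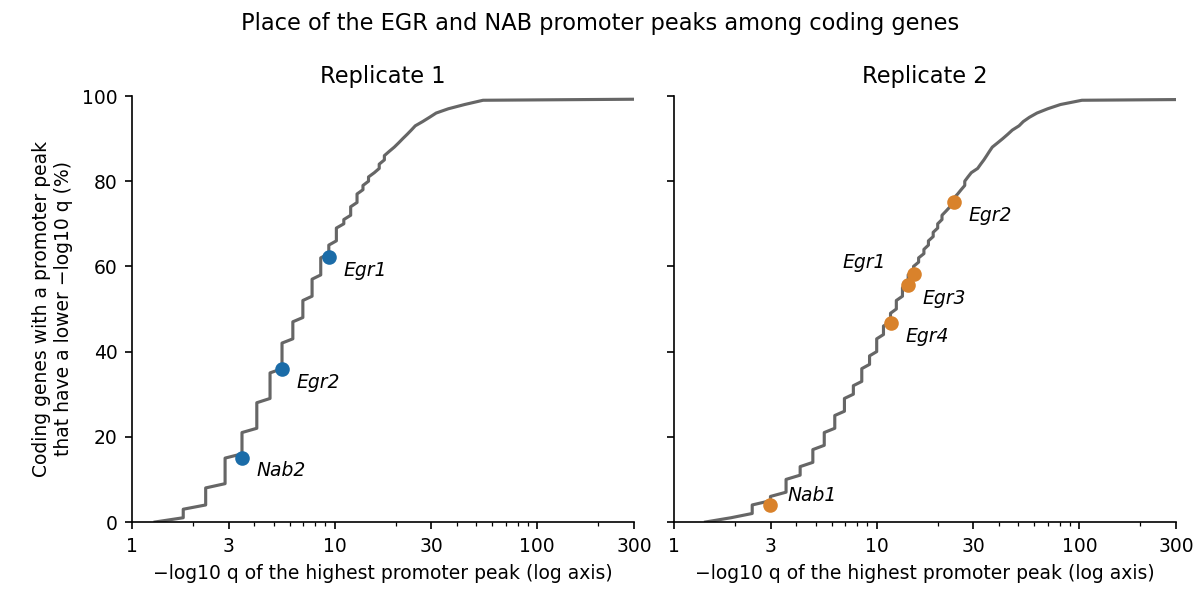
Share of coding genes with a promoter peak whose highest peak has a lower −log10 q (vertical, percent) against −log10 q (horizontal, log axis), with the EGR and NAB genes marked. Egr1 stands at 62.1% and 58.2% in replicates 1 and 2, Egr2 moves from 35.9% to 75.1%, and Nab1 and Nab2 stand at 4.04% and 15.1% in the replicate where each was listed.

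The order of the genes by tags was Egr1 (22), Egr2 (17) and Nab2 (14) in replicate 1. None of these 3 pairs differed in tags beyond counting error (two-sided exact binomial test, Benjamini-Hochberg adjusted p = 0.720 for each pair, and 0 of 3 at an unadjusted p under 0.05). The ratio of Egr1 to Egr2 was 1.29, with an interval of 0.656 to 2.60. In replicate 2 the order was Egr2 (39), Egr1 (30), Egr3 (29), Egr4 (26) and Nab1 (14). Here 1 of 10 pairs passed the test, in which Egr2 had 2.79 times the tags of Nab1 (1.48 to 5.55, exact binomial test, adjusted p = 0.00802). Neighbours in this order were not told apart. The ratio of Egr2 to Egr1 was 1.30 (0.787 to 2.17), that of Egr1 to Egr3 was 1.03 (0.600 to 1.79) and that of Egr3 to Egr4 was 1.12 (0.634 to 1.97). Egr4 and Nab1 were also neighbours, at a ratio of 1.86 (0.935 to 3.85, exact binomial test, adjusted p = 0.202). These tests compare peaks within 1 library and cover counting error only. The authors removed duplicate reads, but without molecular identifiers the tags cannot be shown to be independent molecules.

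Whether the height of a shared peak differed between the replicates beyond depth was tested over all 32219 pairs of overlapping peaks of both lists. At equal height, the backgrounds predict 53.7% of the tags of a pair in replicate 2. Of all pairs, 0.549% differed (177 pairs, 168 of them higher in replicate 2, exact binomial test, Benjamini-Hochberg threshold 0.05), and the median ratio of replicate 2 to replicate 1 after scaling for depth was 1.06. None of the 5 pairs at Egr1 and Egr2 passed, and 1 of 5 had an unadjusted p under 0.05, as did 2182 of all pairs. This was the Egr2 promoter, with 17 and 39 tags and a ratio of 1.98 (1.09 to 3.73, exact binomial test, p = 0.0219, adjusted p = 0.510). The peak downstream of Egr1 had a ratio of 1.53 (0.835 to 2.90), the first Egr1 promoter peak 1.36 (0.742 to 2.56) and the second 0.863 (0.456 to 1.63). For the distal peak of the Egr2 window, upstream of Ado, the ratio was 1.40 (0.724 to 2.80). The intervals leave room for differences of more than 2-fold at each of these peaks.

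The peaks listed in 1 replicate alone were set against the most tags that the other list leaves out, which are 9 in replicate 1 and 10 in replicate 2. This limit stands in for a count that was not observed, and each peak entered because it passed in 1 list alone. The outcome thus depends only on the tags of the listed peak, and the p-values do not measure a difference between the replicates. For peaks near the limit the test could not pass. At the height it had in replicate 2, the Egr3 peak predicts 25 tags in replicate 1, which is 2.78 times the most that the list of replicate 1 leaves out (interval of this ratio 1.28 to 6.68, exact binomial test, p = 0.00526). The Egr4 peak predicts 22.4 tags, a ratio of 2.49 (1.13 to 6.04, exact binomial test, p = 0.0168). Over all 31420 peaks of replicate 2 alone, the adjusted p was 0.442 for Egr3 and 0.709 for Egr4, so neither passed, beside 0.0255% of these peaks that did and 1573 with an unadjusted p under 0.05. The Nab1 peak predicts 12.1 tags in replicate 1 and the Nab2 peak near Stat6 12.9 (exact binomial test, p = 0.537 and 0.420). In the other direction, the Nab2 promoter peak of replicate 1 predicts 16.2 tags in replicate 2 and the peak near Reep2 12.8 (exact binomial test, p = 0.306 and 0.664). Of the 23951 peaks of replicate 1 alone, 0.00835% passed this test, and 688 had an unadjusted p under 0.05. No listed peak was narrower than 151 bp in replicate 1 or 158 bp in replicate 2. The minimum width set in peak calling is not given in the sources used here, and a stretch below it would be missing from a list whatever its tags. The absence of Egr3, Egr4 and Nab1 from replicate 1 was therefore not shown to be a difference between the samples, and this test could not decide it.

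Short sequence motifs were counted within 100 bp of each summit, on both strands, in windows of 201 bp. Besides the EGR site, the CArG box, the CRE half-site and the SP1 site given above, they included the full CRE (TGACGTCA), which contains a half-site. The AP1 site was searched as TGANTCA, the ETS site as CCGGAAG, the SF1 site as CAAGGNCA, and the CCAAT box by its name. The highest promoter peak of each gene was set beside the highest promoter peaks of all coding genes, which made 6234 and 8635 distinct windows in replicates 1 and 2. A CArG match stood in 2 of the 3 windows of replicate 1 (Egr1 and Egr2) and in 2 of the 5 windows of replicate 2 (Egr2 and Egr3), beside 0.818% and 0.741% of the coding windows. A CRE half-site stood in 1 of 3 windows (Egr2) and in 3 of 5 (Egr2, Egr3 and Egr4), with 2 matches in each, beside 27.7% and 27.0%. Both together stood in 1 of 3 windows (Egr2) and in 2 of 5 (Egr2 and Egr3), beside 0.241% and 0.174% of the coding windows, 15 of them in each replicate. Egr1 had a second, lower promoter peak in each list. The window of the peak nearer the second Egr1 TSS held 3 CArG matches in replicate 1, where it was the higher peak. In replicate 2, where it was the lower, it held 2 CArG matches and 2 CRE half-sites, and the window of the higher peak held neither. The windows around the promoter summits of Nab1 and Nab2, unlike the RefSeq window of Nab1 printed above, held no match to any of the 9 motifs. The summit windows overlap between replicates at Egr2, so its matches are the same bases counted for each list. The pairing was looked for after the matches of single motifs were known.

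EGR matches were absent from all promoter summit windows of the 6 genes, beside 5.41% and 6.43% of coding promoter windows that held one. The peak downstream of Egr1 was the single EGR or NAB locus peak with EGR matches, 2 of them together with 3 SP1 matches in the window of either replicate, and its windows were 72.6% G and C. Over all summits, 0.723% in replicate 1 and 1.09% in replicate 2 held an EGR match, and 9.85% and 12.1% held an SP1 match. The median share of G and C was 47.8% and 48.3%. At the distal peaks near other genes, the window near Reep2 held 2 SF1 matches and the one near Stat6 1 AP1 match. The one near Ado held 1 ETS match in replicate 1 and none in replicate 2. Among all summits of replicate 1, 5.65% held an SF1 match and 3.78% an ETS match, and in replicate 2 4.90% held an AP1 match. A match describes letters and does not show that a factor was bound.

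Promoter peaks were also counted at genes that act on EGR and NAB proteins or with them. Of 18 such genes, 8 had a promoter peak in replicate 1 and 11 in replicate 2, on average 9.5 ± 2.12 genes (SD, n = 2). Of these genes, 8 had one in both replicates, 3 in replicate 2 alone and 7 in neither. These shares can be read beside the 32.3%, 44.4% and 30.8% of coding genes given above. The median −log10 q of those with a peak was 9.65 in replicate 1 and 12.5 in replicate 2, beside 5.50 and 14.3 for the EGR and NAB genes with a peak.

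Of the kinases that carry the GnRH signal, Map2k1 had 16 and 23 tags at the promoter in replicates 1 and 2. Mapk3 and Map2k2 had no promoter peak in either. Srf, whose product binds CArG boxes, had 27 and 31 tags. Its fold enrichment, 6.98 ± 0.10 (SD, n = 2), varied least among the genes of this list whose peaks overlapped between the replicates. Of the SRF partners, Elk1 had 15 and 38 tags, and Elk4 had 17 and 20 tags in peaks that did not overlap, at different TSSs. Elk3 had no peak. Of the CRE-binding factors, Creb1 had 29 and 73 tags, with −log10 q of 40.1 ± 34.5, and Atf1 had 14 and 16 tags in peaks that did not overlap.

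Of the partners and targets of EGR1 in gonadotropes, Lhb, which encodes the β subunit of luteinizing hormone, had 49 and 70 tags. Its −log10 q was 49.1 ± 16.2, above every EGR and NAB promoter in both replicates. Nr5a1 had 17 tags in replicate 2 and no summit within 1 kb in replicate 1, where the nearest lay 1113 bp from a TSS and counts as a promoter peak at a limit of 2 kb. Pitx1 had none in either replicate. Sp1, whose zinc finger product binds GC-rich sites like those of EGR proteins, had the highest peaks of the list, with 51 and 85 tags. Wt1, which also recognizes EGR-like sites, had no peak. Of the genes for proteins that work with NAB or EGR proteins, the chromatin remodelling genes Chd3 and Chd4 had a peak in replicate 2 alone, with 27 and 16 tags, and the acetyltransferase genes Crebbp and Ep300 had none in either replicate. Like Egr3, Egr4 and Nab1, the 3 genes of this list with a peak in a single replicate had it in replicate 2. This is the more common case among all coding genes. A promoter peak was called at 44.4% of them in replicate 2 and at 32.3% in replicate 1, with 30.8% in both.

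**Figure D4:**
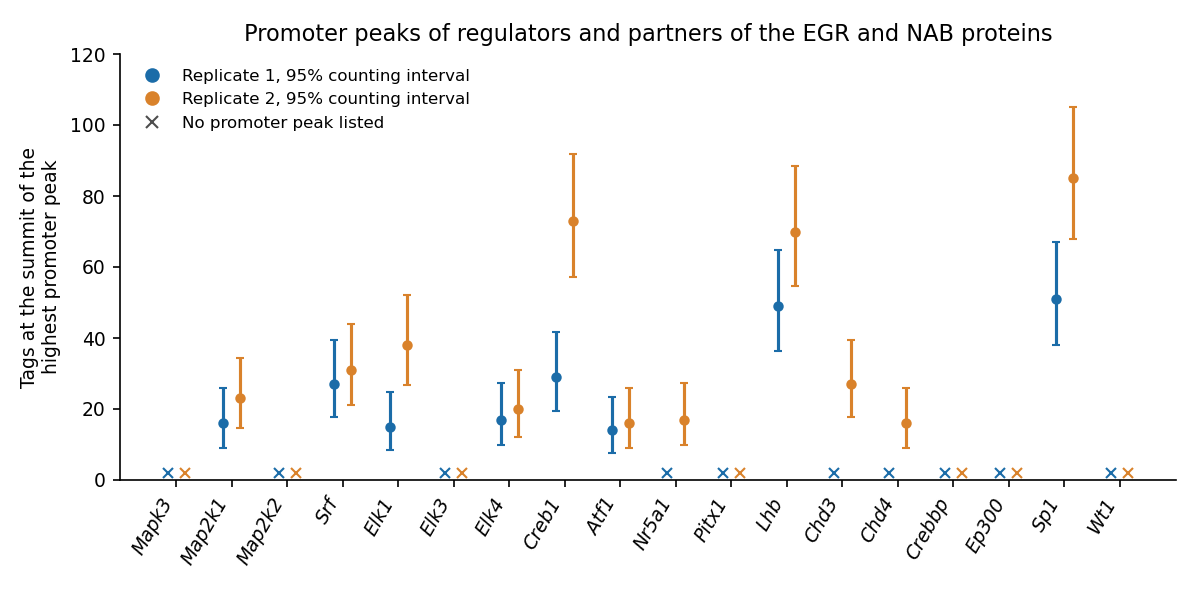
Tags at the summit of the highest promoter peak of 18 genes that act on or with EGR and NAB proteins, for both replicates, with 95% Poisson intervals. Crosses near 0 mark genes without a listed promoter peak and are not values. Lhb, Sp1 and, in replicate 2, Creb1 stand above the other genes, and 7 genes have no peak in either replicate.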

How the data were processed

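ATAC-seq was carried out by the authors on 2 replicate samples of LβT2 cells under 1 condition. Per the study's methods, the reads were mapped to GRCm38 (mm10) with Bowtie2, and duplicate reads were removed. Peaks were then called with MACS2 for each replicate on its own. Tags were extended to 200 bp, and the genome size option was one meant for the fly. No input control is named, and the version of neither tool is given in the sources used here. For each peak, the authors deposited start, end and summit, beside a peak score, which is 10 times −log10 q as a whole number. They also deposited the fold enrichment of the summit and the −log10 of the p-value and of the q-value. Fold enrichment is a ratio over background in which 1 is added to the tags and to the background. The background and the tags at each summit were solved from fold and p-value, and recomputed −log10 p differed from the deposited values by at most 1.51e-04. The solved tags do not depend on the genome size option, but the background, the fold enrichment, the q-value and the choice of listed peaks may.

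Everything else was computed in Python 3.11.15 with the packages pandas 2.3.3, numpy 2.4.6, numba 0.67.0 and scipy 1.17.1. Genome sequence was read with samtools 1.23.1, and figures were drawn with matplotlib 3.10.9. TSSs were those of all GENCODE vM21 transcripts, with RefSeq as an alternative. A summit was single-copy when the 50 bp around it occurred once in GRCm38. Pairs of peaks, single peaks and pairs of genes were compared with two-sided exact binomial tests with Benjamini-Hochberg adjustment and a threshold of 0.05. The methods were tested in 6 checks on simulated data. The check of the tag test between replicates could be passed with most of the changed pairs missed. Promoter sequences came from RefSeq windows on GRCm38.p6, which matched 4 of the 6 genes.

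The 6 genes, the list of 18 related genes and the marker lists were chosen with earlier results of these data known. Another gene set down for that list is not reported here. All 6 genes and all of these list genes are named, with any gene whose TSS lies within 1 kb of a locus summit. The test of peaks listed in 1 replicate, the count of CArG boxes with CRE half-sites and the limit to single-copy summits were added after seeing the data. Read coverage, RNA-seq and single-cell data were not analysed here.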

Additional observations from a re-analysis of the deposited data

How the results depend on the processing

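Of 81 recomputed values, 63 stayed within the spread between the replicates or within 1.5 times of a reported count. For peak heights without 1 replicate this outcome was fixed in advance, since each of 2 values always lies within 1 SD of their mean. The limit to single-copy summits could not change a count either, since all locus summits and highest promoter peaks of related genes were single-copy already. The number of shared peaks without 1 replicate was also fixed, because the overlap was always taken from both lists. All of these values are counted among the 63 but do not bear on how stable the results are. Keeping only peaks with −log10 q of at least 10 left no peak in replicate 1 at any of the 6 loci. On average over the replicates, 2.0 genes with a promoter peak, 3.0 locus peaks, 2.0 promoter peaks, 1.0 distal peak and 0 shared peaks remained, with 0 of the 6 genes in both replicates. Of the related genes, 5.0 remained, with 4.0 in both replicates. Counting only the 5′ end of each gene as its TSS gave 2.50 genes with a promoter peak (1.0 in both replicates), 2.50 promoter peaks and 5.50 distal peaks, because the promoter peaks of Egr2 and Nab2 and the second one of Egr1 lie at internal TSSs. Flanks of 100 kb gave 18 locus peaks on average, 13 of them distal and 13 shared. Requiring an overlap of 50% of both peaks left 2.0 shared peaks, the first Egr1 promoter peak and the peak upstream of Ado. Requiring summits within 100 bp also left 2.0, but these were the peak downstream of Egr1 and the Egr2 promoter peak. No shared peak met both rules. Taking the expected share from the summed tags lowered the share of all pairs called to 0.192%, with the EGR pairs still at 0. Leaving out either replicate gave 3 to 5 genes with a promoter peak, 7 to 9 locus peaks, 4 to 6 promoter peaks and 8 to 11 related genes. The median −log10 q of the highest promoter peaks was 5.50 without replicate 2 (3 genes) and 14.3 without replicate 1 (5 genes), which are not the same genes. Over all coding genes with a promoter peak, the median was 6.97 in replicate 1 and 12.5 in replicate 2. At Egr2, −log10 q was 5.50 without replicate 2 and 24.0 without replicate 1. At Egr1 it was 9.36 and 15.2, so these heights rest on the replicate used. A promoter limit of 2 kb gave 9 related genes in replicate 1 and 9 in both replicates. The restriction to single-copy summits changed no count of peaks at the 6 loci, where every summit was single-copy from the start. No paired analysis was possible because both samples belong to 1 condition and no groups were compared.

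Depth and the authors' peak calling settings limit every statement on single peaks. Summits at the 6 loci rest on 11 to 39 tags, and their intervals cover counting error only. An SD from 2 replicates is itself imprecise. A gene without a listed peak, such as Egr3 in replicate 1, may have accessible DNA below the 10 or 11 tags that the lists require.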
